A study of Mus musculus with 8 samples.

Results

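The genes described here are 10 genes of skeletal muscle, ordered by the stage at which they act: the progenitor factors Pax3 and Pax7, the determination factors Myf5 and Myod1, the differentiation factor Myog, and the fibre genes Myh3, Neb, Acta1, Des and Chrna1. They were taken by gene symbol from both deposited tables, and all 10 were found among the 18904 genes of the Meis1 table and the 17348 genes of the Prep1 table. The submitters sequenced mRNA from entire mouse embryos of strain C57BL/6, taken on embryonic day 11.5. There were 3 libraries of Meis1 knockout (KO) embryos against 3 of their wild-type (WT) littermates, and 1 library of Prep1 hypomorphic embryos, which keep reduced Prep1 function, against 1 of their own WT littermates. Meis1 and Prep1 are homeodomain transcription factors of the TALE family, and the design asks what loss of each does to the embryo's transcripts. No source used here gives the allele of each mutant or the number of embryos behind a library, so p-values measure the spread between these libraries only.

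Skeletal muscle of the trunk and limbs comes from the dermomyotome of the somites, where progenitors express Pax3 and Pax7. Myf5 and MyoD, the product of Myod1, commit these cells to muscle, myogenin, the product of Myog, drives their exit from the cell cycle, and the fused fibres then build sarcomeres, the contractile units, and receptors for the motor nerve. At mid-gestation the myotomes hold early, mostly mononucleated muscle cells, while progenitors still migrate into the limb buds. Pax3 and Pax7 are also expressed in the dorsal neural tube, and Des in heart and smooth muscle, so in a whole embryo these transcripts have more than 1 source.

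The Meis1 table gives group means, from which whole counts of each library were worked back. The 3 libraries of a group are called a, b and c by size, and they cannot be tied to the sample codes. They held 4362406 to 4950625 counts (KO) and 4412904 to 6422192 counts (WT), and the Prep1 pair held 5893401 (hypomorph) and 4000984 (WT). Levels are CPM, a gene's count scaled to a common library total, after TMM scaling between libraries. Meis1 itself was at 84.4, 65.9 and 69.0 CPM in KO a, b and c, against 90.0, 85.7 and 109 CPM in WT a, b and c, so its transcript was lower and not lost. No source used here says which part of the gene the KO removes. Pknox1, the gene of Prep1, was at 2.36 CPM in the hypomorph against 32.5 CPM in its WT. Genes of the low-oxygen and glycolysis list summed to 10901, 3153 and 3632 CPM in KO a, b and c, against 2710 to 3678 CPM in WT, so KO a stood apart from the others.

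The muscle genes did not separate Meis1 KO from WT embryos. None of the 10 was called by edgeR's quasi-likelihood test at a false discovery rate of 0.05, where 0% of 14443 genes were called, and the adjusted p (Benjamini-Hochberg) was 0.9999 for each. None of the 10 had an unadjusted p under 0.05 either, against 225 of all genes (1.56%), of which 151 were higher in KO (1.05%) and 74 lower (0.512%). DESeq2 called 1 gene in all (0.00692%) and limma-voom 0, with 166 and 193 genes at an unadjusted p under 0.05, and neither called a muscle gene of the 10. KO and WT libraries overlapped for all 10 genes, while 818 of the 14443 genes (5.66%) did not overlap, 422 with all KO above all WT (2.92%) and 396 with all KO below all WT (2.74%). What stood out was the difference between libraries of 1 genotype: Myod1, Myog and Myh3 were high in some libraries and low in others, in KO and WT alike, as the plot of levels by library shows.

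**Figure D1:**
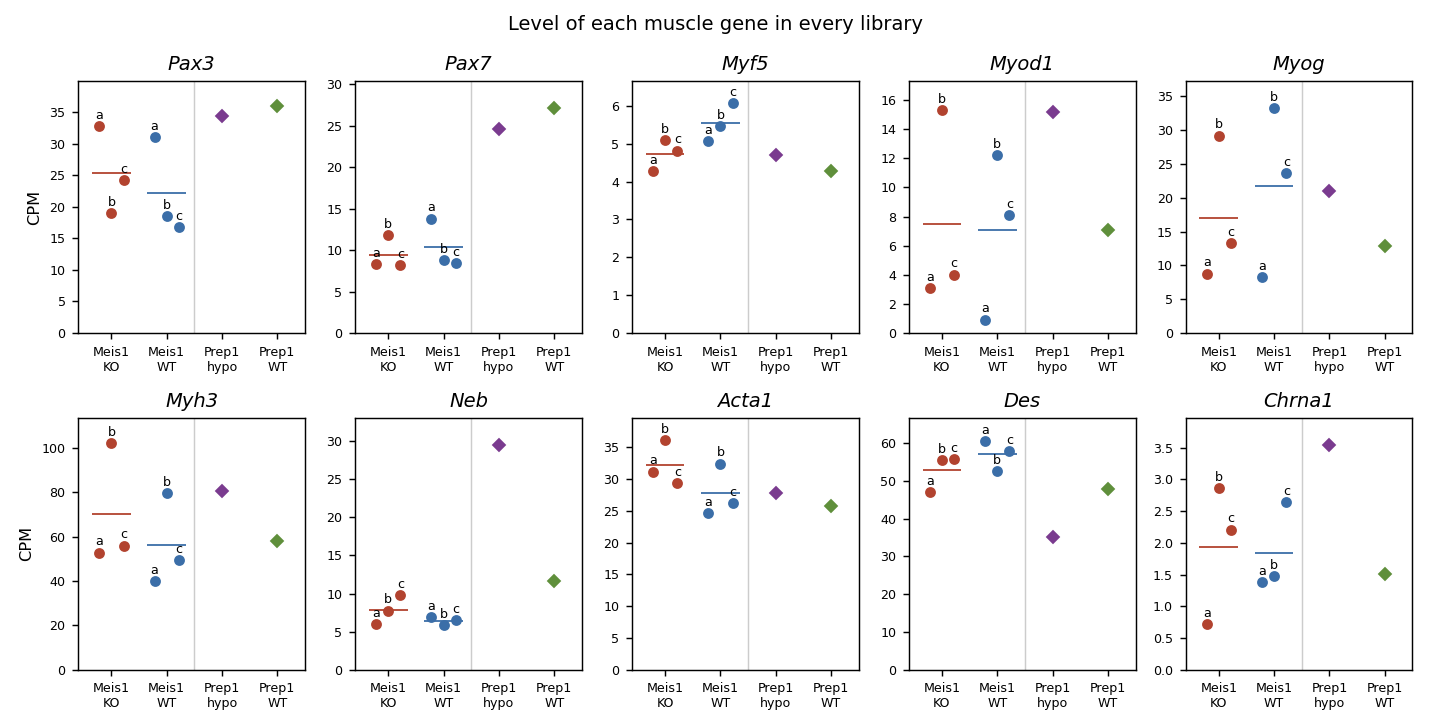
Level of each of the 10 muscle genes in CPM (vertical axis, from 0) in every library; circles are Meis1 KO and WT libraries a, b and c with the group mean as a line (n = 3 each), and diamonds are the single Prep1 hypomorph and WT libraries, from a table scaled separately. Myod1 spans 0.921 to 15.3 CPM over the 6 Meis1 libraries, and Neb in the Prep1 hypomorph, at 29.5 CPM, lies above all other libraries.

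Pax3 (ENSMUSG00000004872, chr1:78097842-78193709 of build mm9, minus strand), which marks somite progenitors and migrating limb muscle precursors, was at 32.8, 19.0 and 24.3 CPM in KO a, b and c, against 31.1, 18.5 and 16.8 CPM in WT a, b and c. Library a was the highest of each group, and the log2 difference was 0.20 (SE 0.28, n = 3 each). Dorsal neural tube markers, whose cells also express Pax3, summed to 717, 547 and 582 CPM in KO a, b and c, against 635, 572 and 559 CPM in WT a, b and c, so the 2 libraries with most Pax3 were also highest for this list. Single markers differed: Zic1 and Zic2 were highest in KO a, at 415 and 106 CPM. Msx1 and Zic4 were lowest there, at 73.3 and 22.6 CPM. All 12 dorsal markers were measured and none was at 0 in any library. Their part in the Pax3 values was not tested.

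Pax7 (chr4:139292977-139389445, minus strand), the factor later kept by muscle satellite cells, was at 8.32, 11.8 and 8.23 CPM in KO a, b and c, against 13.8, 8.84 and 8.41 CPM in WT a, b and c. The groups spanned nearly the same range, with a log2 difference of -0.12 (SE 0.28). The highest library for Pax3 in KO was thus not the highest for Pax7. The count of Pax7 per Pax3 count lay between 0.254 (KO a) and 0.624 (KO b).

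Myf5 (chr10:106919964-106923190, minus strand), the earliest of the determination factors in the somite, was the steadiest regulator. It was at 4.28, 5.10 and 4.82 CPM in KO a, b and c, against 5.06, 5.47 and 6.07 CPM in WT a, b and c, from 18 to 25 counts (KO) and 22 to 39 counts (WT) a library. The groups overlapped only in that KO b lay just above WT a, and the log2 difference was -0.23 (SE 0.28). The 95% Poisson intervals, which cover counting error only, met for the lowest library (KO a, 2.54 to 6.77 CPM) and the highest (WT c, 4.32 to 8.30 CPM).

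Myod1 (chr7:53631844-53634462, plus strand), the second determination factor, was the least steady. It was at 3.09, 15.3 and 4.01 CPM in KO a, b and c, on counts of 13, 75 and 20. Among the WT libraries a, b and c it stood at 0.921, 12.2 and 8.10 CPM, on counts of 4, 58 and 52. The 95% Poisson interval of the lowest library, WT a, was 0.251 to 2.36 CPM, and that of WT b was 9.27 to 15.8 CPM, which cover counting error only and do not meet. The 2 means were close, 7.47 ± 6.80 CPM in KO and 7.07 ± 5.71 CPM in WT (SD, n = 3 each), with a log2 difference of 0.07 (SE 0.73). Without KO b it was -1.0, and without WT a -0.41, so single libraries set its sign.

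Among the genes of the muscle series with a RefSeq promoter, 4 are shown because their levels are compared next and because their promoters carry the classical muscle motifs. Of the 10 genes 7 matched a RefSeq promoter (GRCm38.p6), and Pax3, Myod1 and Neb did not. Each line gives the 250 bases before the annotated start, 5′ to 3′ on the gene's strand. Capitals mark E-boxes (CANNTG, the site of MyoD and myogenin), the MEF2 core site (MEF2 factors work together with myogenin) and the CArG box (the site of serum response factor). The promoter of Des also holds E-boxes and is not shown, and those of Pax7 and Myf5 hold none of the marked motifs. The shown promoters were thus picked for their motifs and do not stand for the whole series. The coordinates are chr1:134289754-134290003 (Myog, plus strand), chr11:67078050-67078299 (Myh3, plus strand), chr2:73580339-73580588 (Chrna1, minus strand) and chr8:123894776-123895025 (Acta1, minus strand).
Myog: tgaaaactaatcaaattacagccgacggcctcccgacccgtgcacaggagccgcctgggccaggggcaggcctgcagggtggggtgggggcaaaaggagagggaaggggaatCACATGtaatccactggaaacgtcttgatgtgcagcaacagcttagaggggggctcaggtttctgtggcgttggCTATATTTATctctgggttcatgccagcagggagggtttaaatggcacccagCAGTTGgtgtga
Myh3: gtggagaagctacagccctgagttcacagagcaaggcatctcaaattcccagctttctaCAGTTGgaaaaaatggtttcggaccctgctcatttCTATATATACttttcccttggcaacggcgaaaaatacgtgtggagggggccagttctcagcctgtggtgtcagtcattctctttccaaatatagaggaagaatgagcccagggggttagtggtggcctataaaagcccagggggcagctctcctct
Chrna1: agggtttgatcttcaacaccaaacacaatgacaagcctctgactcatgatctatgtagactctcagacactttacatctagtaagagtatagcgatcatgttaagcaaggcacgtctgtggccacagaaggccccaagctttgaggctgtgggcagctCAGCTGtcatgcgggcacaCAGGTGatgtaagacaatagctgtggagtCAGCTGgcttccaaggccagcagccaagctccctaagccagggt
Acta1: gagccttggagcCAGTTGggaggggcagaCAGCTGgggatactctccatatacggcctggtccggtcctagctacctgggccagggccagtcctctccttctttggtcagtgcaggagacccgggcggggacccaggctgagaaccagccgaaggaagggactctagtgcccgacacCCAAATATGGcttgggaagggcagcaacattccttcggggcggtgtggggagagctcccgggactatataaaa

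Both strands were searched in all 32851 promoters of this length. An E-box of any kind stood in 5 of the 7 promoters (Des, Myog, Chrna1, Acta1 and Myh3), but also in 66.2% of all promoters. The form CAGCTG, which is 1 of the CANNTG words, stood in 3 of the 7 (Des, Chrna1 and Acta1) and in 13.0% of all. The MEF2 core site stood in Myog, from 64 to 55 bases before the start, and in Myh3, from 156 to 147 bases before it, and in 7.03% of all promoters. The CArG box stood in Acta1 and in 1.47% of all. The TALE word TGACAG, which Meis and Prep proteins bind, was found in Des and Chrna1 and in 15.9% of all promoters. In both genes a match shared 3 bases with a CAGCTG E-box, and Des held another match apart from one. TATAAA was found in Acta1 and Myh3 and in 12.4% of all. A match is a word in the sequence and was not tested for binding.

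Myog (chr1:136186581-136189124, plus strand), whose promoter above holds 2 E-boxes and the MEF2 core site, followed Myod1 from library to library. It was at 8.80, 29.2 and 13.2 CPM in KO a, b and c, against 8.29, 33.3 and 23.7 CPM in WT a, b and c. The low libraries were KO a, WT a and KO c, and the high ones were KO b, WT b and WT c, the same as for Myod1. The means were 17.1 ± 10.7 CPM in KO and 21.7 ± 12.6 CPM in WT (SD, n = 3 each), and the log2 difference was -0.35 (SE 0.50), which turned to 0.078 without WT b. For each Pax3 count the Myog count was 0.268, 1.54 and 0.545 for KO a, b and c, against 0.267, 1.80 and 1.41 for WT a, b and c. The balance of differentiation factor to progenitor factor thus differed widely between libraries of 1 genotype.

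**Figure D2:**
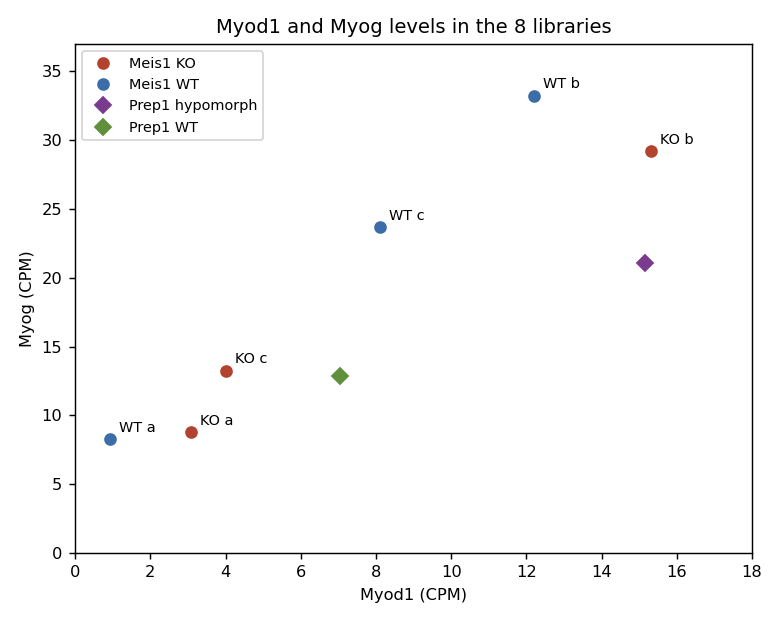
Myog (vertical axis) against Myod1 (horizontal axis), both in CPM, in the 3 Meis1 KO and 3 Meis1 WT libraries (circles) and the 2 Prep1 libraries (diamonds, scaled separately). KO a, KO c and WT a lie at the lower left and KO b, WT b and WT c at the upper right, so each genotype has libraries in both places.

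Myh3 (chr11:66891802-66915793, plus strand), the embryonic myosin heavy chain of newly formed fibres, was at 52.8, 102 and 56.0 CPM in KO a, b and c, against 39.8, 79.6 and 49.4 CPM in WT a, b and c. Library b was the highest in both groups. The log2 difference was 0.32 (SE 0.30), and -0.050 without KO b. Acta1 (chr8:126415669-126418651, minus strand), the skeletal α-actin of the thin filament, also peaked in library b of each group but varied little, with 31.2, 36.1 and 29.3 CPM in KO a, b and c against 24.6, 32.4 and 26.2 CPM in WT a, b and c and a log2 difference of 0.22 (SE 0.17). Both genes have close relatives, and how the authors' read assignment divided shared reads between them cannot be checked here.

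Neb (chr2:51992167-52194318, minus strand), which encodes nebulin, the giant protein that runs along the thin filament, was at 5.95, 7.75 and 9.83 CPM in KO a, b and c, against 6.91, 5.89 and 6.54 CPM in WT a, b and c. The groups overlapped, with KO c the highest and WT b the lowest, and the log2 difference was 0.29 (SE 0.28). Neb was not high in library b of the WT group, where Myod1 and Myog peaked.

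Des (chr1:75356904-75365154, plus strand), the intermediate filament desmin that ties sarcomeres together, was the steadiest of the 10. It was at 47.1, 55.5 and 55.8 CPM in KO a, b and c, against 60.5, 52.6 and 57.9 CPM in WT a, b and c, with a log2 difference of -0.11 (SE 0.14). Heart muscle cells also express Des, and the sum of the heart markers was lowest in KO a, where Des was lowest. In KO a, b and c they summed to 415, 547 and 654 CPM. In WT a, b and c they summed to 693, 512 and 687 CPM. Single markers differed: Nppa and Nppb were highest in KO a, at 53.0 and 7.37 CPM. Tnni3, Csrp3 and Nkx2-5 were lowest there, at 25.2, 6.42 and 1.90 CPM. All 14 heart markers were measured, and Sln was at 0 in KO a. Their part in the Des values was not tested. In bulk RNA of this kind, fewer cells of a type and less RNA per cell cannot be told apart, for Des as for every gene here.

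Chrna1 (chr2:73401272-73418395, minus strand), the α subunit of the muscle acetylcholine receptor, was near the limit of the depth. Its counts were 3, 14 and 11 for KO a, b and c, against 6, 7 and 17 for WT a, b and c, or 0.713, 2.86 and 2.21 CPM against 1.38, 1.47 and 2.65 CPM. Its log2 difference of 0.06 (SE 0.52) changed sign without any 1 of KO b, KO c, WT a or WT b. At these counts a difference of the size of its SE was not detectable.

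The spread of each gene can be set beside that of all others. Over the 6 libraries the highest level of Myod1 was 16.6 times its lowest, and only 18 of 12651 genes with a mean of at least 5 CPM (0.142%) spread as much. The ratio was 4.01 for Myog (1.94% of genes spread as much), 2.56 for Myh3 (7.22%) and 1.95 for Pax3 (19.2%). It was 1.68 for Pax7, 1.67 for Neb, 1.47 for Acta1, 1.42 for Myf5 and 1.29 for Des, close to or under the median gene's 1.52. Chrna1, with a ratio of 4.0 on few counts, lay below the minimum level and was not ranked.

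The authors' deposited table gives a related score for each group, the ratio of a gene's own variance to that fitted for its level. In that table the ratio was 5.31 (KO) and 4.36 (WT) for Myod1, 4.01 (KO) and 5.98 (WT) for Myog, and 4.31 (KO) and 3.28 (WT) for Myh3, against medians of 0.375 (KO) and 0.362 (WT) over the 12651 genes with a mean of at least 5 CPM. The share of these genes whose ratios in both groups were at least the named gene's lower ratio was 0.395% for Myod1, 0.474% for Myog and 0.672% for Myh3. Myf5, by contrast, had ratios of 0.0374 (KO) and 0.0445 (WT), so the 2 determination factors lay on opposite sides of the median gene. Of the 12651 genes, 85.5% had ratios in both groups at least as high as the lower ratio of Myf5. On its few counts, low ratios do not show that Myf5 was steady beyond counting error. The p-values in the authors' deposited table were 0.0994 for Myh3 and 0.198 for Myog before adjustment, and the adjusted p was 1 for all 10 genes. Over all genes of the authors' deposited table the adjusted p was under 0.05 for 49 of 18904 (0.259%).

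**Figure D3:**
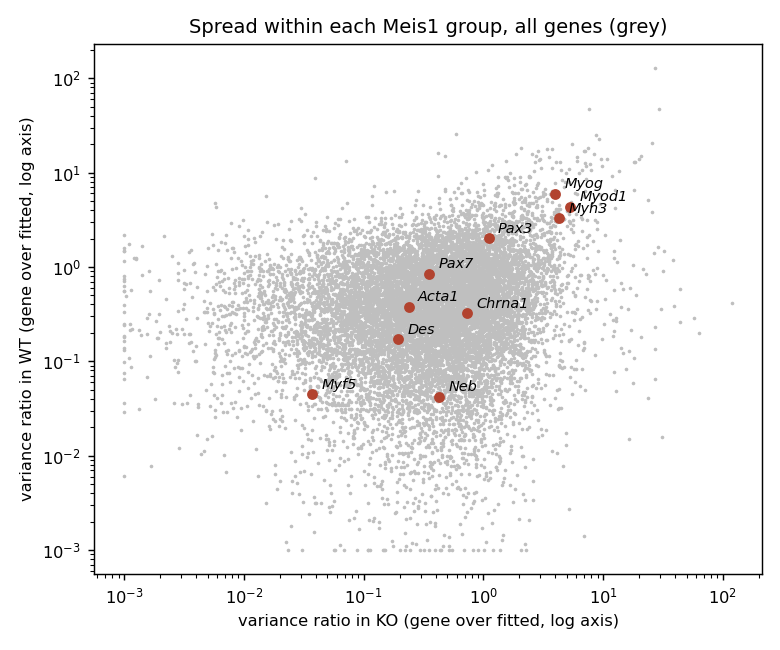
Ratio of each gene's variance to the fitted variance within Meis1 KO (horizontal axis) and Meis1 WT (vertical axis), both on log axes, from the authors' deposited table for 12651 genes (grey, with the few lowest values drawn at the axis minimum) and the 10 muscle genes (red). Myod1, Myog and Myh3 lie together at the upper right, at 3.28 or above in both groups, and Myf5 at the lower left.

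Within a library, levels of different genes were compared per kilobase of exon. On this scale Acta1 (22.3 ± 2.44 in KO, 19.2 ± 2.85 in WT) and Des (17.4 ± 1.63 in KO, 18.8 ± 1.33 in WT) led, in CPM per kilobase (SD, n = 3 each). Myog (11.4 ± 7.17 in KO, 14.5 ± 8.42 in WT) and Myh3 (11.6 ± 4.55 in KO, 9.29 ± 3.42 in WT) came next, followed by Pax3 (6.56 ± 1.81 in KO, 5.73 ± 2.01 in WT) and Myod1 (4.01 ± 3.65 in KO, 3.80 ± 3.07 in WT). The lower places were held by Myf5 (2.27 ± 0.20 in KO, 2.66 ± 0.243 in WT), Pax7 (1.61 ± 0.351 in KO, 1.77 ± 0.513 in WT), Chrna1 (0.439 ± 0.251 in KO, 0.418 ± 0.161 in WT) and Neb (0.327 ± 0.0810 in KO, 0.268 ± 0.0214 in WT). Some neighbours in this order, such as Myog and Myh3 in KO or Acta1 and Des in WT, lay within each other's SD. Others, such as Acta1 and Des or Pax3 and Myod1 in KO, lay farther apart than the smaller of their SDs, and these differences were not tested. Nebulin's transcript is very long, so its low place per kilobase goes with a count similar to that of Myf5.

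Other genes were compared, by the Pearson correlation over the 6 Meis1 libraries, with the mean standardised log2 level of Myog, Myh3, Neb, Acta1, Des and Chrna1. These 6 genes did not share 1 profile. Myh3 correlated with Acta1 at 0.93, but Neb with Myog at -0.088 and Des with Acta1 at -0.55. Being close to their mean level is therefore not being close to each of them. Among 10941 genes with a mean of at least 10 CPM the 6 closest to this mean level were Gnl1 (0.991), Fdxr (0.990), Mov10 (0.986), Gpaa1 (0.983), Skiv2l (0.979) and Ctxn1 (0.978). None is a muscle gene of the lists used here. With 6 points shared by all genes, high values are easily reached, and these serve as a description only. Gnl1, the closest, was at 45.2, 76.5 and 66.4 CPM in KO a, b and c, against 50.2, 64.0 and 58.4 CPM in WT a, b and c.

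Wider lists of muscle genes gave the same picture in the Meis1 comparison. Of 30 tested regulators of somite and muscle progenitors, 19 were above 0 and 11 below, with a median log2 difference of 0.09, against -0.0018 over all genes. Of 31 regulators of differentiation and fusion 15 were above 0 (median -0.0043), of 45 further sarcomere genes 21 (median -0.04), of 23 genes of excitation, calcium and energy 13 (median 0.07), and of 17 genes of the nerve-muscle junction and membrane 12 (median 0.13, but 0.016 without KO a and 0.033 without WT a). The sarcomere list also holds genes of heart muscle, such as Myh7 and Csrp3. No gene of these muscle lists passed the false discovery rate in edgeR's quasi-likelihood test, in DESeq2 or in limma-voom. An unadjusted p under 0.05 in edgeR was reached by 3 genes, all higher in KO, as 1.05% of all genes were.

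These were Dach2, a cofactor of somite muscle regulators, at 22.1, 12.2 and 13.2 CPM in KO a, b and c against 11.3, 9.89 and 8.72 CPM in WT a, b and c (log2 difference 0.67, SE 0.27). Stac3, a protein of the excitation-contraction coupling complex, was at 6.18, 3.06 and 3.01 CPM in KO a, b and c against 1.38, 1.68 and 2.18 CPM in WT a, b and c (1.17, SE 0.42). Ncam1, an adhesion molecule of muscle and nerve, was at 121, 99.8 and 91.1 CPM in KO a, b and c against 81.0, 78.3 and 71.0 CPM in WT a, b and c (0.44, SE 0.15). In each the 3 KO libraries lay above the 3 WT libraries, as for 422 of all genes (2.92%), and KO a, which stood apart in its low-oxygen genes, was the highest. Their adjusted p (edgeR, Benjamini-Hochberg) was 0.9999. Trim63, a ubiquitin ligase of the sarcomere, also lay above WT in all KO libraries, with 4.21 to 5.47 CPM in KO and 2.99 to 3.58 CPM in WT.

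In the Prep1 pair, with 1 library a side and no test, Myod1, Myog, Myh3 and Neb stood higher in the hypomorph beyond counting error, and Des stood lower. The progenitor factors did neither. The share of all genes beyond counting error was not computed, so these calls do not set the muscle genes apart. In deeply counted genes even small log2 ratios lay beyond it, as in Agrn (0.14, interval 0.05 to 0.23) and Tcf3 (-0.17, interval -0.26 to -0.08). Pax3 was at 34.3 CPM in the hypomorph against 36.0 CPM in WT, a log2 ratio of -0.07, with a 95% exact interval of -0.38 to 0.25 that covers counting error only, as all those below. Pax7 was at 24.6 CPM in the hypomorph against 27.2 CPM in WT, a log2 ratio of -0.14 (-0.52 to 0.23). Myf5 was at 4.71 in the hypomorph against 4.28 CPM in WT, a log2 ratio of 0.13 (-0.78 to 1.10). Counting error alone covers a ratio of 1 for these 3 genes. Of 11 dorsal neural tube markers with at least 20 counts, 9 had ratios below 0, with a median of -0.26. The list summed to 498 CPM in the hypomorph against 573 CPM in WT. The part of neural tube transcripts in the Pax3 and Pax7 values was not tested.

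Myod1 was at 15.2 CPM in the hypomorph (90 counts) against 7.05 CPM in WT (28 counts), a log2 ratio of 1.06 (0.48 to 1.77). Myog was at 21.04 CPM in the hypomorph against 12.8 CPM in WT, a log2 ratio of 0.69 (0.23 to 1.21), and Myh3 was at 80.6 CPM in the hypomorph against 58.2 CPM in WT, a log2 ratio of 0.47 (0.24 to 0.70). Of 13780 genes, 1.78% had a ratio as high as Myod1, 4.83% as high as Myog and 9.69% as high as Myh3. Per Pax3 count there were 0.613 Myog counts in the hypomorph and 0.357 in WT. The Myod1 and Myog ratios were smaller than the spread between Meis1 WT libraries, where the highest lay above the lowest by 3.73 (Myod1) and 2.0 (Myog) on the log2 scale, and than that between Meis1 KO libraries, 2.31 (Myod1) and 1.73 (Myog). The Myh3 ratio was likewise smaller than the Myh3 range of 0.95 (KO) and 0.998 (WT) on the log2 scale.

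Neb departed most. It was at 29.5 CPM in the hypomorph (175 counts) against 11.6 CPM in WT (46 counts), a log2 ratio of 1.32 (0.87 to 1.85), and 0.893% of 13780 genes had a ratio as high. The Neb range between Meis1 libraries was 0.73 (KO) and 0.23 (WT) on the log2 scale, less than this ratio. Such ranges over several Meis1 libraries, here and for Myod1, Myog and Myh3 above, do not measure the spread to be expected in the Prep1 pair. For Neb, across the separately scaled tables, the 6 Meis1 libraries lay between 5.89 and 9.83 CPM, below both Prep1 libraries. Pax7 also differed between tables, with both Prep1 libraries at 24.6 CPM or more and the Meis1 libraries at 8.23 to 13.8 CPM, and such differences between tables were not tested.

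Acta1 was at 27.8 CPM in the hypomorph against 25.7 CPM in WT, a log2 ratio of 0.11 (-0.25 to 0.48), so the fibre genes did not move as a block. Chrna1 had 21 counts in the hypomorph against 6 in WT, a log2 ratio of 1.04 with an interval of -0.13 to 2.82. Des was at 35.2 CPM in the hypomorph against 47.9 CPM in WT, a log2 ratio of -0.44 (-0.73 to -0.15), a ratio as low as that of 5.46% of genes. Heart markers were lower too: 10 of the 11 with at least 20 counts had ratios below 0, with a median of -0.42, and the list summed to 279 CPM in the hypomorph against 400 CPM in WT. Much of the difference in this sum came from Myh6, the atrial myosin heavy chain. Myh6 was at 68.2 CPM in the hypomorph against 152 CPM in WT, a log2 ratio of -1.15. Nppa went the other way, at 22.6 CPM in the hypomorph against 15.6 CPM in WT, a log2 ratio of 0.52 (0.09 to 0.99). The part of heart transcripts in the Des value was not tested.

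In all, 3 of the 10 genes (Neb, Myod1 and Chrna1) were at least 2-fold higher in the hypomorph, where 2.01% of 13780 genes were (2 of the 10 with a prior count of 5, where Chrna1 had a log2 ratio of 0.85), and 0 were at least 2-fold lower, where 0.464% were (2.47% of genes either way). The minimum was set on the larger raw count, and the hypomorph library was the larger (5893401 counts against 4000984 in WT). Genes with few counts thus entered more readily when high in the hypomorph. Chrna1 entered on its 21 hypomorph counts, against 6 in WT, and its interval (-0.13 to 2.82) covers 0. The shares of genes higher and lower therefore depend in part on this minimum, and how far was not tested. The median log2 ratio of the 10 was 0.30, against 0.0031 over all genes. The 2 Prep1 libraries were sequenced without replicates, and how much 2 libraries of 1 genotype differ is shown for the Meis1 litters only.

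**Figure D4:**
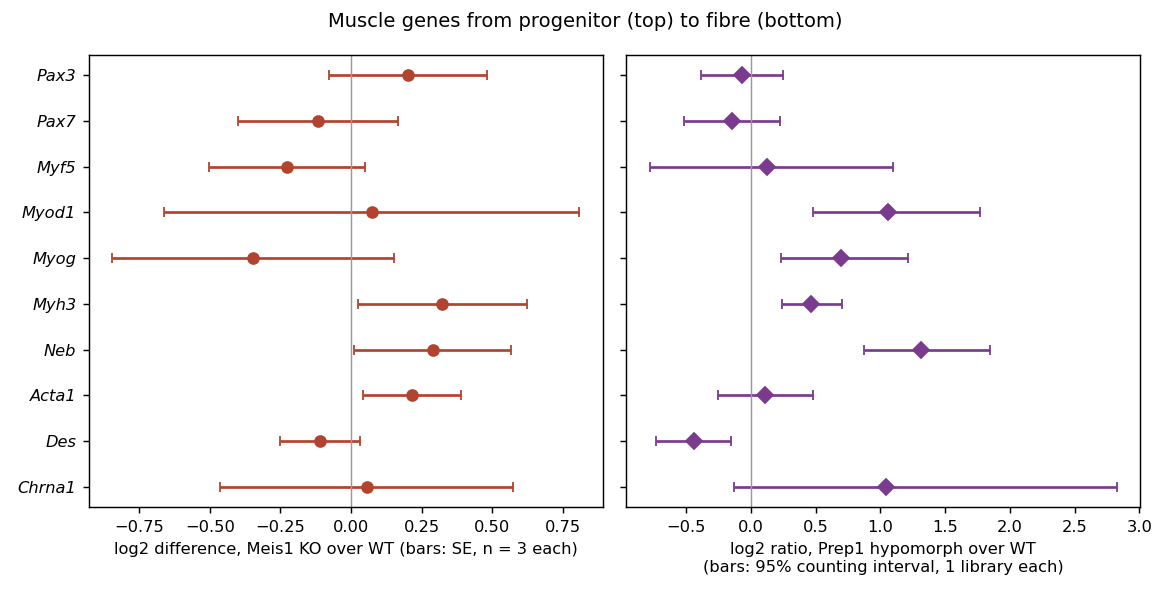
Left, log2 difference of Meis1 KO over WT (points) with its SE (bars, n = 3 libraries each); right, log2 ratio of the Prep1 hypomorph over WT (diamonds) with the 95% interval for counting error (bars, 1 library each), for the 10 genes from progenitor (top) to fibre (bottom). All points on the left lie between -0.35 and 0.32, and on the right Myod1, Neb and Chrna1 lie above 1 and Des at -0.44.

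The other muscle lists in the Prep1 pair held members that differed in both directions. Of 29 progenitor regulators 17 had ratios above 0 (median 0.08), of 29 differentiation and fusion regulators 22 (median 0.19), of 39 sarcomere genes 16 (median -0.05), of 20 genes of excitation, calcium and energy 11 (median 0.05) and of 16 junction and membrane genes 11 (median 0.15). The sarcomere list also holds genes of heart muscle, such as Myh7 and Csrp3, so its median does not stand for skeletal muscle alone. Msc, a bHLH repressor expressed in muscle precursors, had a log2 ratio of 1.42 on 28 and 6 counts (hypomorph and WT), and Fgfr4, a growth factor receptor of muscle progenitors, one of 1.07. Meox1, a somite homeobox gene, was lower with -0.64, and Dach2 with -0.89.

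Nfix, which drives the change from embryonic to fetal muscle genes, was at 22.7 CPM in the hypomorph against 5.29 CPM in WT, a log2 ratio of 2.02 (1.43 to 2.84). Between Meis1 libraries Nfix was at 7.85, 14.7 and 4.41 CPM in KO a, b and c, against 2.99, 22.1 and 14.0 CPM in WT a, b and c, with its highest levels in the libraries where Myod1 and Myog were high. Tnnt1, the slow skeletal troponin T, had a log2 ratio of 0.81 in the Prep1 pair, and in the Meis1 libraries was at 25.4, 50.4 and 31.1 CPM in KO a, b and c, against 24.9, 51.4 and 39.7 CPM in WT a, b and c. Myh8, the perinatal myosin, had a log2 ratio of 0.89, and was at 1.66, 7.55 and 4.41 CPM in KO a, b and c, against 0.921, 7.79 and 4.05 CPM in WT a, b and c. These 3 genes were picked for this pattern, which most of their lists did not share: a Pearson correlation of at least 0.9 with Myod1 over the 6 Meis1 libraries was reached by 1 of 23 differentiation and fusion regulators and 3 of 27 sarcomere genes with a mean of at least 10 CPM, against 1.79% of 10953 genes. The median correlation was 0.50 for these differentiation and fusion regulators and -0.00056 for these sarcomere genes, among which are genes of heart muscle such as Myh7.

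Among sarcomere and energy genes that were lower in the hypomorph were Actn3, the fast-fibre α-actinin, with a log2 ratio of -1.29 on 17 counts in the hypomorph and 30 in WT, Eno3, the muscle enolase, with -1.08, and Myh7, the slow and ventricular myosin heavy chain, with -0.72. Myh7 is also a heart gene, and was at 106 CPM in the hypomorph against 174 CPM in WT. Casq1, a calcium store protein, had a log2 ratio of -0.71, and Cdh15, the M-cadherin of myoblasts, was higher with 0.82. Smooth muscle markers had a median log2 ratio of 0.08, and neural crest markers one of 0.01.

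**Figure D5:**
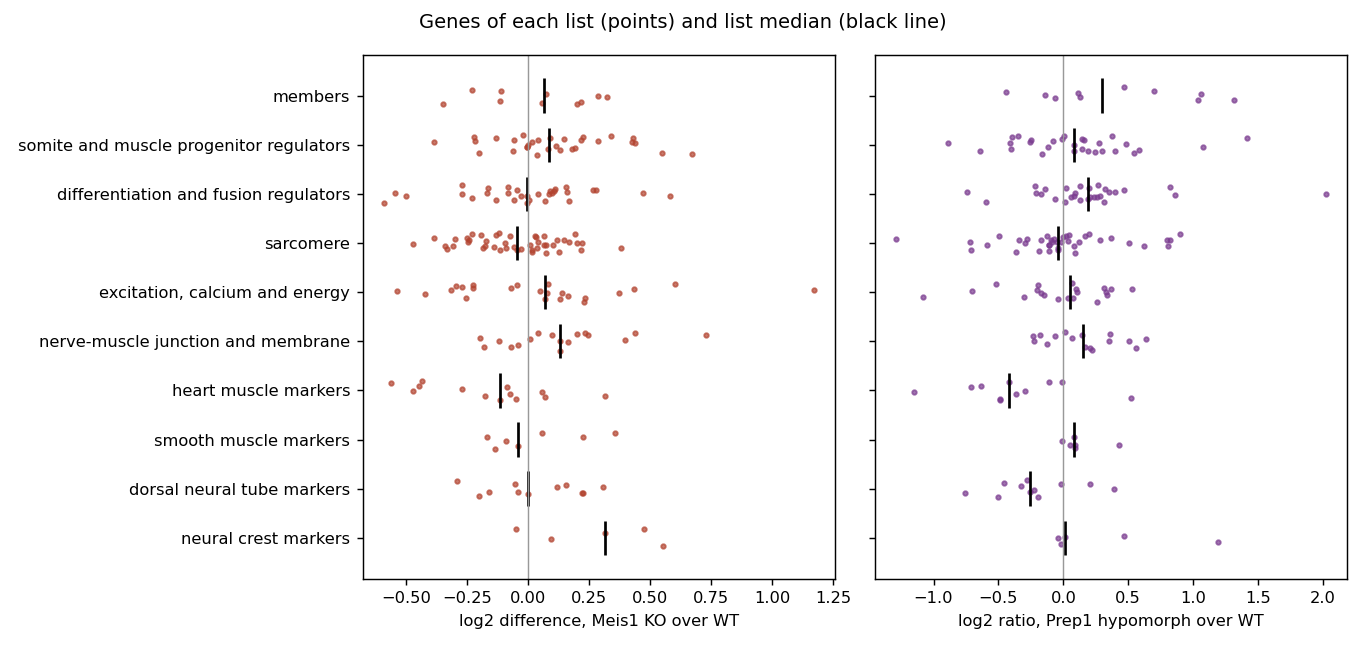
Log2 difference of Meis1 KO over WT (left) and log2 ratio of the Prep1 hypomorph over WT (right) for the genes (points) of each list, with the list median as a black line. In both panels the muscle lists straddle 0, and heart markers have their median at -0.12 (left) and -0.42 (right).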

How the data were processed

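The submitters' processing notes name RSEM for expression estimates from single-end reads and genome build mm9, to which the gene coordinates refer. No source used here gives versions or later tools. Per the file headers, the Meis1 table holds a signal, counts divided by size factors and averaged over each group, with a fold ratio, its log2 value, p-values and a variance score, all deposited by the authors under the column names of the DESeq package. The Prep1 table holds expected counts deposited by the authors, with 0 written as 0.1. Both tables had been filtered by the authors.

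The plan assumed counts per library. Each Meis1 mean is a sum of 3 whole counts over 3 size factors, and the printed precision left 1 set of counts for 18896 of 18904 genes in each group. The variance score settled others, and 5 genes (H19, Eef1a1, Hbb-y, Hbb-bh1, Hba-x) stayed unsettled and were left out. Tests used edgeR 4.0.16 (quasi-likelihood, TMM, filterByExpr, Benjamini-Hochberg), with DESeq2 1.42.0, limma 3.58.1, other scalings, no filter and each library left out as alternatives. The steps were tested on simulated data.

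Prep1 ratios were taken between TMM-scaled CPM values after adding a prior count of 2, and lists were restricted to genes whose larger count was 20 or more. The hypomorph library was the larger, so this minimum admitted genes with few counts more readily when they were high in the hypomorph. Exon lengths came from GENCODE M21. The 10 genes and the lists were chosen with earlier results of these data known. Beside the 10 genes, the text names examples from the 3 genes of each list with the smallest p (Meis1) or largest ratio (Prep1) in each direction. It also names the 6 genes closest to the mean level of the differentiation and fibre genes. The Meis1 values of Nfix, Tnnt1 and Myh8 were picked for the text once seen.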

Additional observations from a re-analysis of the deposited data

How the results depend on the processing

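In the Meis1 comparison none of the 10 genes passed a false discovery rate of 0.05 under any scaling, filter, tool or left-out library. With a library left out the sign of the log2 difference turned for 6 of them, and the cause was not tested. Pax3 ranged between -0.022 (without KO a) and 0.52, Pax7 between -0.31 and 0.14 (without WT a), Myod1 between -1.0 (without KO b; -0.41 without WT a) and 0.66, Myog between -0.98 and 0.078 (without WT b), and Myh3 between -0.050 (without KO b) and 0.66. Chrna1 ranged between -0.33 (without KO b) and 0.45, with -0.036 without KO c, -0.096 without WT a and -0.080 without WT b, and was -0.066 in limma-voom. Genes called over the whole table numbered 0 by edgeR and 1 by DESeq2. Genes at an unadjusted p under 0.05 numbered 395 without the filter, where more genes were tested, and 125 (without WT c) to 539 (without KO b) with a library left out, among them 444 without WT a. With a library left out the median log2 difference of the 10 genes was -0.22 (without KO b) to 0.11, that of progenitor regulators 0.071 to 0.19, that of junction and membrane genes 0.016 (without KO a; 0.033 without WT a) to 0.18, and that of excitation, calcium and energy genes -0.061 (without WT b) to 0.091. In the Prep1 pair the junction and membrane median was 0.36 with genes of at least 5 counts. Chrna1 fell under 2-fold with a prior count of 5 (log2 ratio 0.85), which left 2 genes in place of 3. The other alternatives kept a gene's sign and side of the threshold and moved list medians by less than the spread between libraries. No paired analysis was possible because it is not known which sample code belongs to which recovered library. The codes form 2 series, each with KO and WT samples, whose meaning is not stated, so a batch shared across groups could not be entered in the fit. Myf5, Myod1 and Chrna1 rest on few counts a library, which limits what could be detected.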
